A study of Mus musculus with 6 samples.

Results

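Cytosolic ribosomal protein genes were followed in cells sorted from infarcted and uninfarcted mouse heart. They were taken from the deposited table of FPKM (fragments scaled to transcript length and to the mapped fragments of the library) by gene symbol: Rpl or Rps with a number and at most a trailing a, x or l, together with Rplp0, Rplp1, Rplp2 and Rpsa, and without symbols marked as pseudogenes. The rule found 80 genes among 45038 rows, 48 of the large subunit and 32 of the small subunit. All 80 identifiers are in GENCODE M21 (build GRCm38), 79 as protein coding genes, whereas Rps4l is annotated there as a transcribed processed pseudogene. A few ribosomal proteins have symbols that the rule does not reach, among them Fau, Rps3a1 and Gnb2l1 (now Rack1). Rpl13 was not analysed here.

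The mice were C57BL/6 and carried Tie2-Cre with Rosa-LSL-tdTomato in both groups, so that cells in which the Tie2 promoter has driven Cre are permanently red. Tie2 marks endothelial cells and also part of the blood lineage. In the MI group (myocardial infarction, 3 libraries) the left anterior descending coronary artery had been tied at 6 to 8 weeks of age, and infarcted tissue was taken 3 weeks later. The Normal group (3 libraries) was left ventricle labelled as without that surgery, although the protocol text given for it is the same. Cells that were tdTomato+ and F4/80- were sorted, F4/80 being a macrophage marker, and their RNA was amplified by in vitro transcription before sequencing. Each group has libraries numbered Ms1535, Ms1537 and Ms1608. Nothing in the labels says whether a number is a mouse, and every p-value rests only on how far libraries of a group lie from each other, which may be technical. In bulk RNA, fewer cells of a type and less RNA per cell cannot be told apart.

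Each ribosome has a large subunit, where peptide bonds are made, and a small subunit, where the mRNA is decoded. Ribosomal proteins are made in near equal numbers, and their mRNAs typically begin with a run of pyrimidines (the TOP motif) through which the mTOR pathway controls their translation. Several mammalian ribosomal proteins have paralogues with narrow expression, for example Rpl3l in heart and skeletal muscle and Rpl10l in testis.

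Ribosomal protein mRNAs were among the most abundant in every library, but no member passed the test between MI and Normal. By limma on log2(FPKM + 1), with Benjamini-Hochberg adjustment over the 10168 genes that reached 1 FPKM in at least 3 of the 6 libraries, 0 of the 77 members tested passed an adjusted p of 0.05, and the lowest adjusted p among them was 0.486, for Rps2. At an unadjusted p under 0.05 the members again numbered 0 in either direction. The background was 1 gene called in the whole table (0.00983%), 16.1% of genes at unadjusted p under 0.05 with MI higher and 0.207% with MI lower. The 3 members that were not tested, because they were too low, were Rpl3l, Rpl10l and Rpl39l.

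The members' summed level differed more among the Normal libraries than between the group means. The summed FPKM of the members was, in the order Ms1535, Ms1537 and Ms1608 kept for all values here, 114085, 126705 and 100634 for MI and 84767, 74818 and 170626 for Normal. Normal Ms1608 was thus the highest of the 6 and the other 2 Normal libraries the lowest. The group means were 113808 ± 13038 (SD, n = 3) for MI and 110071 ± 52678 (SD, n = 3) for Normal, with p = 1.0 by an exact two-sided permutation test over libraries, for which the smallest possible p is 0.1. Normal Ms1608 held the highest value of 56 of the 77 tested members, against 26.8% of all tested genes, and Normal Ms1537 the lowest value of 50, against 28.9% of all tested genes. Of the 2 subunits, 30 of 45 large and 26 of 32 small subunit genes were highest in Normal Ms1608.

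**Figure D1:**
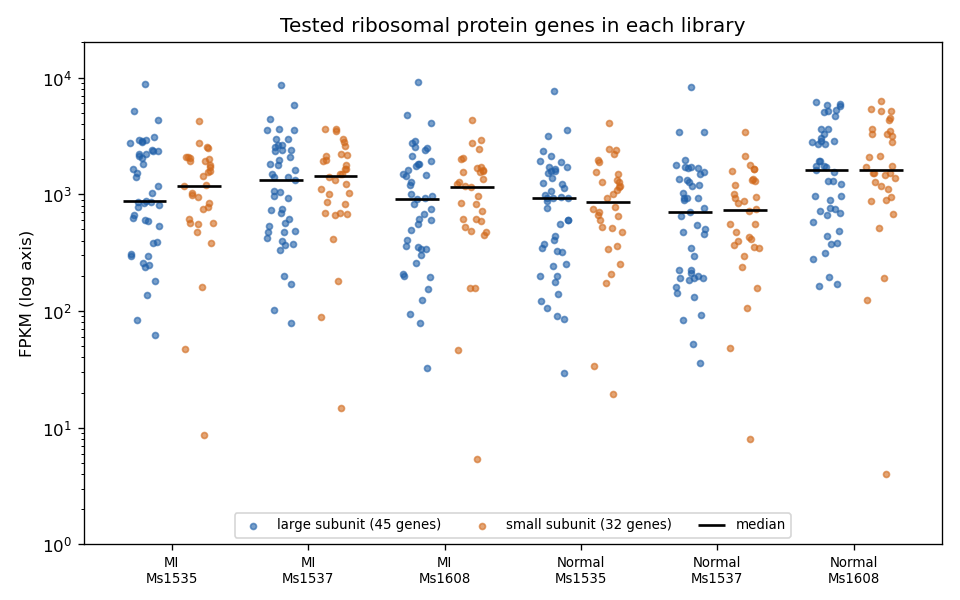
FPKM of each tested ribosomal protein gene (points, log axis) in the 6 libraries, 45 large subunit genes in blue and 32 small subunit genes in orange, with the median of each set as a black bar. Both sets sit highest in Normal Ms1608, where the medians were 1608.5 and 1619 FPKM, and lowest in Normal Ms1537, where they were 705 and 738 FPKM.

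Normal Ms1608 stood apart from the rest. Across tested genes its log2 values correlated with the other libraries at 0.544 to 0.685, whereas the other 5 correlated with each other at 0.798 to 0.917. Markers of other cell types moved with it. The 10 pan-leukocyte markers summed to 7015 FPKM in Normal Ms1608, 462 to 696 in the other Normal libraries and 3248 to 4785 in MI. The 10 lymphocyte markers summed to 843 FPKM there, against 63.0 to 164 and 485 to 926. The 10 endothelial markers, which check the labelled cell type, summed to 37.6 FPKM in Normal Ms1608, 905 to 1275 in the other Normal libraries and 273 to 1083 in MI. Most of the sum in Normal Ms1608 was Pecam1, which went the other way. Pecam1 was 28.3 FPKM there, its highest library, against 19.3 and 13.2 in the other Normal libraries. Each of the other endothelial markers was at its lowest in Normal Ms1608. The 7 fibroblast markers summed to 189 FPKM, against 632 to 815 and 897 to 5461, the 6 cardiomyocyte markers to 9.12, against 470 to 852 and 147 to 1077, and the 5 erythroid markers to 1028, against 6833 to 7232 and 432 to 9599. Of the fibroblast markers, Col1a2 (37.9, against 20.9 and 23.7 FPKM) and Col3a1 (40.9, against 22.6 and 21.2) were higher there than in the other Normal libraries. The rest of that list, with Dcn the largest, was lower. No marker of these lists was listed at 0 in any library. The part of these cells in the members' levels was not tested.

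Values without Normal Ms1608 are therefore given as well. Leaving it out, limma called 459 genes, 452 of them higher in MI (4.45% of those tested), and 0 members, the lowest adjusted p among members being 0.0833, for Rps24. In that comparison 13 of the 77 members had an unadjusted p under 0.05, all with MI higher, against 30.8% of all genes. The members' log2 difference was above 0 for 74 of 77, against 87.7% of all tested genes. Their median was 0.63, against a median of 0.83 for all tested genes. All 3 MI libraries lay above both remaining Normal libraries for 49 of 77 members, against 52.6% of all genes.

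With all 6 libraries the log2 difference (MI minus Normal) was above 0 for 62 members and below 0 for 15, with a median of 0.18 and quartiles of 0.03 and 0.32. The median over all tested genes was 0.78, and 87.2% of them were above 0. That order holds for genes that passed the 1 FPKM filter: with no filter the all-gene median was 0.04 and the members' median 0.18. Standard errors of the members ran from 0.39 to 0.81, larger than most of their differences. The large subunit genes had a median of 0.20, with 39 of 45 above 0, and the small subunit genes 0.11, with 23 of 32 above 0. Leaving out 1 library at a time moved the members' median from -0.12 (without Normal Ms1537, 26 of 77 above 0) through 0.03 (without Normal Ms1535, 41 above 0) and 0.06 (without MI Ms1537, 45 above 0) to 0.63 (without Normal Ms1608). The directions also depend on how libraries are scaled. Dividing each library by its median ratio to a common reference put the all-gene median at 0.02 and the members' median at -0.86, with 0 of 77 above 0. It moved the members together, each by -1.04 to -0.92. Upper-quartile scaling gave 0.20 and -0.57, with 2 members above 0, and quantile scaling -0.05 and -0.13, with 22 above 0. Under each of these scalings 0 members were called. At an unadjusted p under 0.05 by limma, 6 of 77 members were lower in MI with median-ratio scaling and 12 with upper-quartile scaling. With quantile scaling 0 members were lower at that level, and under each of these scalings 0 were higher.

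**Figure D2:**
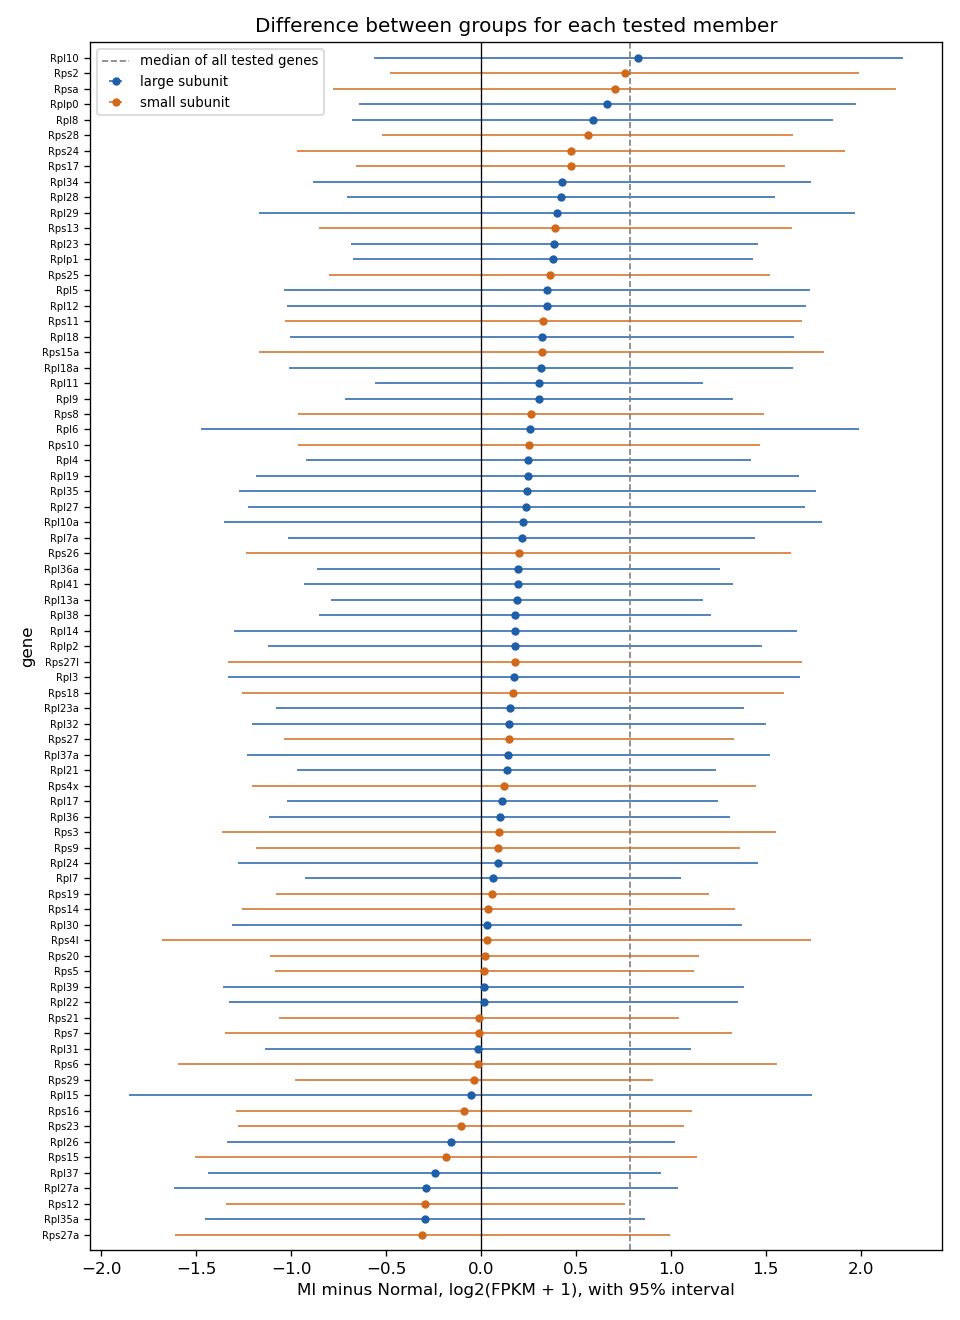
Difference between MI and Normal for each of the 77 tested members on the log2(FPKM + 1) scale, with 95% intervals from limma, ordered by size (blue, large subunit; orange, small subunit; dashed line, median of all tested genes at 0.78). All intervals include 0, and the points run from -0.31 for Rps27a to 0.83 for Rpl10.

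The mRNA starts of some members are shown because the TOP run is what these genes are known to share. RefSeq promoter windows (GRCm38.p6, 250 bases before to 50 after each annotated start) were found for 59 of the 80 members, 71 windows in all. A C at the first base followed by at least 4 pyrimidines stood at the annotated start of 13 of the 71 windows (18.3%), against 2.51% of 32851 windows of all genes. The 13 genes were Rpl14, Rpl15, Rpl28, Rpl35, Rpl35a, Rpl38, Rplp2, Rps10, Rps15a, Rps18, Rps21, Rps27 and Rps6. Annotated starts can be a few bases from the start used in these cells. The motif CTCTTTCC, searched on both strands, was in 13 windows (18.3%) from 10 genes, against 3.12% of all windows. Windows of a gene with several annotated starts can overlap and hold the same site. The motif lay within 15 bases of the start in 3 genes. Those 30 bases, from 15 before to 15 after the start, are written 5′ to 3′ on the gene's strand with the motif in capitals.
Rpl28, chr7:4792950-4792979, + strand: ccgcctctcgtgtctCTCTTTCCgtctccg
Rpl35a, chr16:33056467-33056496, + strand: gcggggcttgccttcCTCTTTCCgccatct
Rpl18, chr7:45718056-45718085, + strand: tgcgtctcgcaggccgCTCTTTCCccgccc
In Rpl28 the motif began at the first base of the annotated transcript, and in Rpl18 at the second. Rpl35a has 3 annotated starts, and the one shown, chosen because the motif lies near it, has the motif at its first base.

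The same windows were searched for CCGGAAGT, the core bound by ETS-family factors such as GABP, which was in 12 of 71 windows (16.9%) against 3.89% of all windows. GGGCGG, the GC box, was in 41 windows (57.7%) from 35 genes, against 35.7%, and TATAAA in 6 (8.45%) against 13.6%. Both strands were searched, and no 2 of these motifs overlapped in a window of a member. As examples, 3 members are shown with CCGGAAGT, or its reverse complement, in capitals. For Rpl19 and Rps18 these are the 100 bases before the start. For Rpl11 it is the stretch from 85 before to 15 after the start, and both CTCTTTCC and CCGGAAGT are in capitals.
Rpl19, chr11:98026610-98026709, + strand: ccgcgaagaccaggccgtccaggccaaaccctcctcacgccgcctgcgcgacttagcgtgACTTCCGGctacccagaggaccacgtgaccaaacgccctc
Rps18, chr17:33955666-33955765, - strand: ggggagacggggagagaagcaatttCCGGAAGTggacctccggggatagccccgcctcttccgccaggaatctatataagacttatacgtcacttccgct
Rpl11, chr4:136053379-136053478, - strand: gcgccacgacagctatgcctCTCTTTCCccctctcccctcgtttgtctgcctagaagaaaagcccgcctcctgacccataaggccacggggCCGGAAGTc
A match is a string of letters, and no binding was measured. The median log2 difference was 0.18 for the 13 members with the pyrimidine start and 0.20 for the other members with a window, given as a description.

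Levels within the set spanned orders of magnitude. FPKM is scaled to transcript length, on which levels of different genes are set side by side here, and how amplification and the length correction act on short mRNAs was not tested. The mean over the 6 libraries had a median of 1086 FPKM over the tested members, against 6.37 FPKM over all tested genes, and 44 members were among the 100 tested genes with the highest means. The means exceeded 1000 FPKM for 41 members and lay under 100 FPKM for 3 tested ones. The order of the 77 members by level was alike in every pair of libraries, with a Spearman correlation across genes of 0.901 to 0.966. Genes are not independent replicates, and each gene has the same model in all libraries. Mean level and the length of the longest annotated transcript had a Spearman correlation of 0.04 over the 77 members. The members lie on 19 chromosomes, 14 of them on chromosome 7.

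Rpl11, a large subunit protein that also binds Mdm2 when ribosome assembly is disturbed, had the highest mean of all (8060.0 FPKM; chr4:136028265-136053428 on GRCm38, whose annotated locus is long for a ribosomal protein gene). Its FPKM was 8798, 8584 and 9238 in MI and 7633, 8241 and 5866 in Normal. The groups did not overlap, with Normal Ms1608 the lowest, the opposite of most members. The log2 difference was 0.31 (SE 0.39, adjusted p = 0.704 by limma). Of the 77 members 1, Rpl11, had all MI libraries above all Normal libraries, against 25.0% of all tested genes, and 0 had them all below, against 0.354%. Its profile over the 6 libraries correlated at -0.55 with the median profile of the members, for which the median correlation was 0.88. Without Normal Ms1608 its difference was 0.16.

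Rpl13a, which is released from the ribosome to silence some inflammatory mRNAs, stood at 4323, 5822 and 4061 FPKM in MI and 3547, 3422 and 5685 in Normal. Rpl23, another Mdm2-binding protein, stood at 5135, 4415 and 4816 in MI and 2332, 3402 and 6179.5 in Normal. In both genes Normal Ms1537 and Ms1535 were the lowest libraries and Normal Ms1608 was as high as any MI library or nearly so. The log2 differences were 0.19 (SE 0.44) for Rpl13a and 0.38 (SE 0.48) for Rpl23, and 0.42 and 0.76 without Normal Ms1608. Of the small subunit, Rps29 and Rps23 had the highest means, 4142 and 3294 FPKM. Rps29, a zinc-finger protein of the small subunit head, was 4256, 3592 and 4345 FPKM in MI and 4086, 3390.3 and 5184 in Normal, which is flat beside its neighbours. Rps23, a protein of the decoding centre, was 2729, 3468 and 2734 in MI and 2423, 2109.7 and 6299 in Normal, so that Normal Ms1608 alone was far above the other 5.

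The P-stalk is the part of the large subunit that recruits elongation factors, built of Rplp0 with Rplp1 and Rplp2. Rplp0 was 608, 686 and 551 FPKM in MI and 406, 212 and 665 in Normal, with a log2 difference of 0.67 (SE 0.59, adjusted p = 0.564 by limma). Rplp1 was 2798, 3623 and 2533 in MI and 2131, 1671 and 3282 in Normal. Rplp2 was 2057, 2638 and 2853 in MI and 1582, 1324 and 5088 in Normal. All 3 were higher in each MI library than in Normal Ms1535 and Ms1537, and Normal Ms1608 lay within the MI range for Rplp0 and Rplp1 and above it for Rplp2. The mean of Rplp0 (521 FPKM) was below that of Rplp1 (2673 FPKM) and Rplp2 (2590.5 FPKM).

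Rpl10 had the largest log2 difference of the set, 0.83 (SE 0.63, adjusted p = 0.497 by limma). It is an X-linked protein that joins the large subunit late in assembly. Its FPKM was 297, 472 and 198 in MI and 122, 144 and 281 in Normal, so the groups overlapped through Normal Ms1608. Rpl10 was the 1 member whose difference exceeded the all-gene median of 0.78. Pseudogene rows here are those marked with -ps in the symbol, and copies under other symbols were not counted. Relative to its own level Rpl10 also had the most signal in such rows. For Rpl10 5 rows summed to 107 FPKM on average, 42.3% of its mean, and reads of such copies may be split between rows.

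Rps2, Rpsa, Rpl8 and Rps28 were, with Rpl10 and Rplp0, the members with the largest differences. Rps2, at the mRNA entry side of the small subunit, was 1189, 1493 and 968 FPKM in MI and 775, 411 and 1117 in Normal, a log2 difference of 0.76 (SE 0.55). Rpsa, also known as the laminin receptor precursor, was 385, 682 and 444 in MI and 252, 156 and 683 in Normal, a log2 difference of 0.70 (SE 0.67, adjusted p = 0.592 by limma). For Rps2 Normal Ms1608 lay within the MI range, and for Rpsa it was level with the highest MI library. Rpl8, near the peptidyl transferase centre, was 808, 1627 and 973 FPKM in MI and 607, 505 and 1229 in Normal, a log2 difference of 0.59 (SE 0.57). Rps28, a small protein at the mRNA exit side, was 1787, 2172 and 1624 in MI and 1184, 946 and 1752 in Normal, a log2 difference of 0.56 (SE 0.49). For Rpl10, Rps2, Rpsa, Rplp0, Rpl8 and Rps28 in that order, the differences without Normal Ms1608 were 1.19, 1.08, 1.30, 1.06, 0.97 and 0.80, and none passed the adjusted threshold. Without Normal Ms1537 they were 0.71, 0.36, 0.24, 0.24, 0.33 and 0.36, and without MI Ms1537 they were 0.51, 0.60, 0.46, 0.58, 0.30 and 0.44. Each of these genes was thus lower without either Ms1537 library, by amounts that differed from gene to gene. Leaving out MI Ms1535 or MI Ms1608 lowered none of them.

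**Figure D3:**
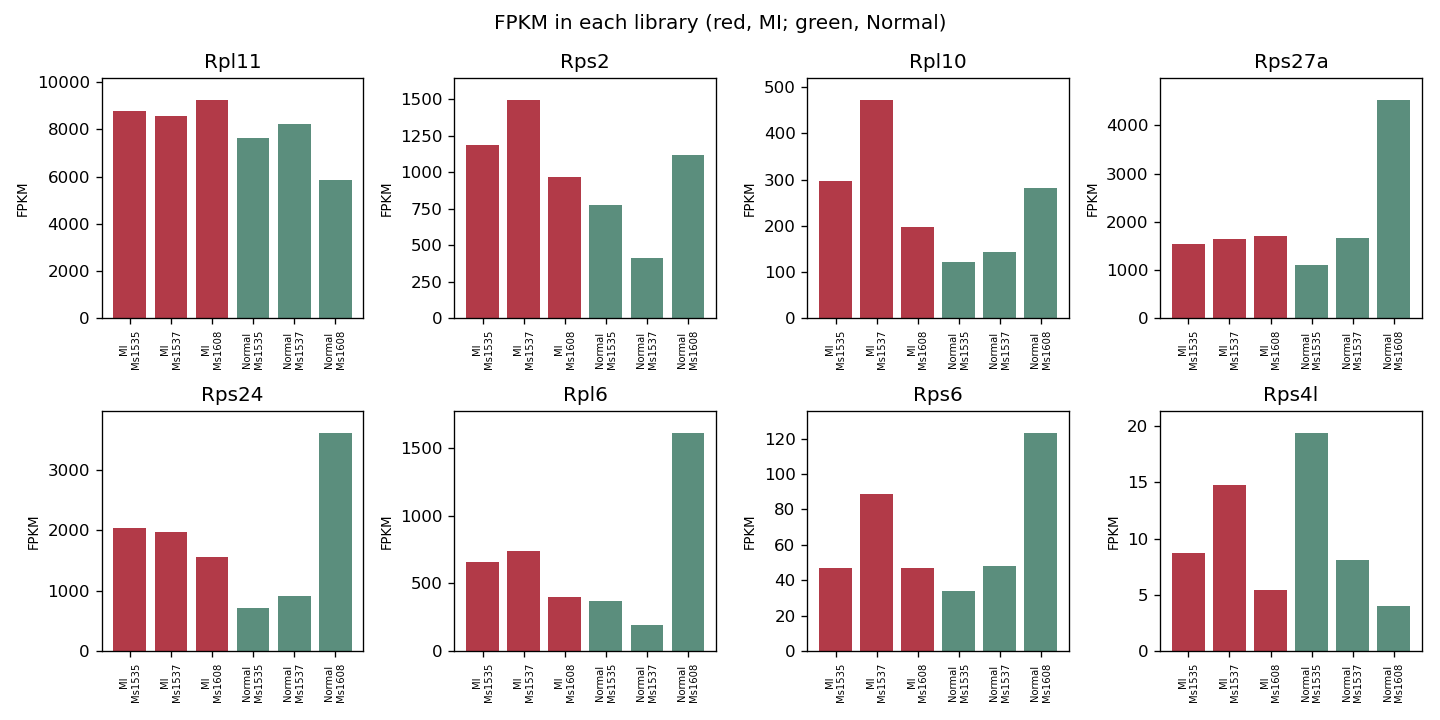
FPKM of 8 members in each library (bars from 0, a separate axis per gene; red, MI; green, Normal). Normal Ms1608 is the highest bar for Rps27a, Rps24, Rpl6 and Rps6, while Rpl11 and Rps4l are lowest there, at 5866 and 3.98 FPKM.

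At the other end, 5 members had the lowest differences, none of which passed the test. Rps27a, made as a fusion with ubiquitin, was 1546, 1642 and 1699.5 FPKM in MI and 1098, 1656 and 4523 in Normal, a log2 difference of -0.31 (SE 0.59, adjusted p = 0.811 by limma). Without Normal Ms1608 the same difference was 0.27, so its sign rested on that library. Rpl35a, 1 of the ribosomal proteins mutated in Diamond-Blackfan anaemia, was 859, 1069 and 996 in MI and 937, 924 and 1946 in Normal, and its difference went from -0.29 to 0.06 without Normal Ms1608. Rpl37, another Mdm2-binding protein, was 536, 489 and 602 in MI and 599, 453 and 969 in Normal, and its difference went from -0.24 to 0.05. Rps12 and Rpl27a kept a negative sign without it. Rps12, a protein of the small subunit beak, was 1912, 2194 and 1675 in MI and 2213, 1767 and 3303 in Normal, with differences of -0.29 and -0.05, and Rpl27a was 84.0, 102 and 93.7 in MI and 107, 84.1 and 165 in Normal, with differences of -0.29 and -0.03.

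Some members departed from the shared profile across the 6 libraries. The measure is the SD of a gene's log2 values about the members' median profile, with a median over members of 0.33. Rps4l was largest at 0.96, followed by Rpl6 (0.65), Rpl15 (0.62), Rpl11 (0.58) and Rpl34 (0.58). This SD also counts a wider swing along the same profile. Rpl6 and Rpl15 correlated with the members' median profile at 0.96 and 0.88, so they departed from it in size rather than in shape. The correlations were -0.24 for Rps4l, -0.55 for Rpl11 and 0.55 for Rpl34. Rpl6, a large subunit protein recruited to sites of DNA damage, was 659, 739.7 and 402 FPKM in MI and 374, 191 and 1608.5 in Normal. Normal Ms1608 was 5.70 times the mean of the other 2 Normal libraries for Rpl6, the highest such ratio of any tested member, against a median of 2.21 over members and 0.919 over all tested genes. Rpl34 was 2860.2, 1783 and 824 in MI and 1064, 928 and 1749.5 in Normal, with its peak in MI Ms1535. Rps24, nearest to the threshold without Normal Ms1608, was 2039, 1981 and 1565 in MI and 708, 919.7 and 3612 in Normal, with a log2 difference of 0.48 (SE 0.65) in all libraries and 1.20 without that one.

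Rpl15, Rps6 and Rpl27a were the lowest of the canonical members. Rps6, the small subunit protein phosphorylated by S6 kinase below mTOR, was only 46.8, 88.8 and 46.7 FPKM in MI and 33.8, 48.1 and 123 in Normal. Rpl15, which is needed for the large subunit rRNA to mature, was 62.5, 78.3 and 32.3 in MI and 29.2, 35.7 and 169 in Normal. Both were highest in Normal Ms1608 like the bulk of the set. For these genes too a sizeable signal was in pseudogene rows, 35.5% of the parent's mean FPKM for Rps6 (4 rows), 14.6% for Rpl15 (4 rows) and 14.4% for Rpl27a (2 rows). All 254 rows marked as pseudogenes by symbol, of which 154 were tested, had a median log2 difference of 0.27, with 0 called. Their summed FPKM was 2138 to 3000 in MI, 1579 to 1644 in Normal Ms1535 and Ms1537 and 4006 in Normal Ms1608. The sums of these rows had the same order of libraries as those of the genes.

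The paralogues that the symbol rule reaches were far below their canonical partners, with Rps27l the nearest. Rpl3l, the striated muscle form, was 0.0243, 0.0607 and 2.45 FPKM in MI and 0.375, 0.768 and 0.912 in Normal, while Rpl3 was 297, 472 and 299 in MI and 200.3, 191 and 760.1 in Normal. MI Ms1608 had the highest Rpl3l and also the highest cardiomyocyte marker sum (1077 FPKM), and MI Ms1535 and MI Ms1537, with sums of 232 and 147, had the lowest Rpl3l, but Normal Ms1608 had 0.912 FPKM at a marker sum of 9.12. From the steps between low FPKM values, 2.45 FPKM is about 101 fragments and 0.0243 about 1.40, under the 3 fragments below which no level was read. These numbers take the longest annotated transcript of the gene, and a shorter one would give fewer fragments. Rpl10l was listed at 0 in 5 libraries and at 0.0293 FPKM in MI Ms1537, about 1 fragment (0.985). In these libraries 3 fragments of Rpl10l would be 0.0734 to 0.103 FPKM, so a lower level could not be seen.

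Rpl39l, the paralogue of Rpl39, was uneven. It stood at 1.85, 0.686 and 0 FPKM in MI and 0.0612, 2.02 and 0.0735 in Normal, on an X-linked partner at 1209.6 to 4712 FPKM. The 2 highest values are about 56.3 and 43.2 fragments, again for the longest annotated transcript, and come from different groups. Rps4l, the autosomal relative of the X-linked Rps4x, was 8.69, 14.8 and 5.40 FPKM in MI and 19.4, 8.06 and 3.98 in Normal, with Normal Ms1535 the highest. Rps4x was 1576, 1653 and 1362 in MI and 1164, 754 and 3142 in Normal, so Normal Ms1608 was the highest library for Rps4x and the lowest for Rps4l. Rps4l had a log2 difference of 0.03 (SE 0.77). The rows of the low paralogues may include reads from the abundant partner, which was not tested.

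Rps27l, a p53 target gene in mouse and human cells, was the nearest in level to its partner among the paralogues inside the symbol rule. The means of Rps27l and Rps27 over the 6 libraries were 328 and 2669.5 FPKM. Its FPKM was 476, 409.9 and 157 in MI and 173, 239 and 511 in Normal, and that of Rps27 was 2548, 2961 and 2465 in MI and 2394, 1320.1 and 4329 in Normal. The log2 differences were 0.18 (SE 0.68) and 0.15 (SE 0.53). MI Ms1608 was the lowest library for Rps27l but not for Rps27. Outside the rule, Rpl36al was nearer to its partner. It was 578, 609 and 405 FPKM in MI and 291, 199 and 1858 in Normal, beside a mean of 2278 FPKM for Rpl36a.

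**Figure D4:**
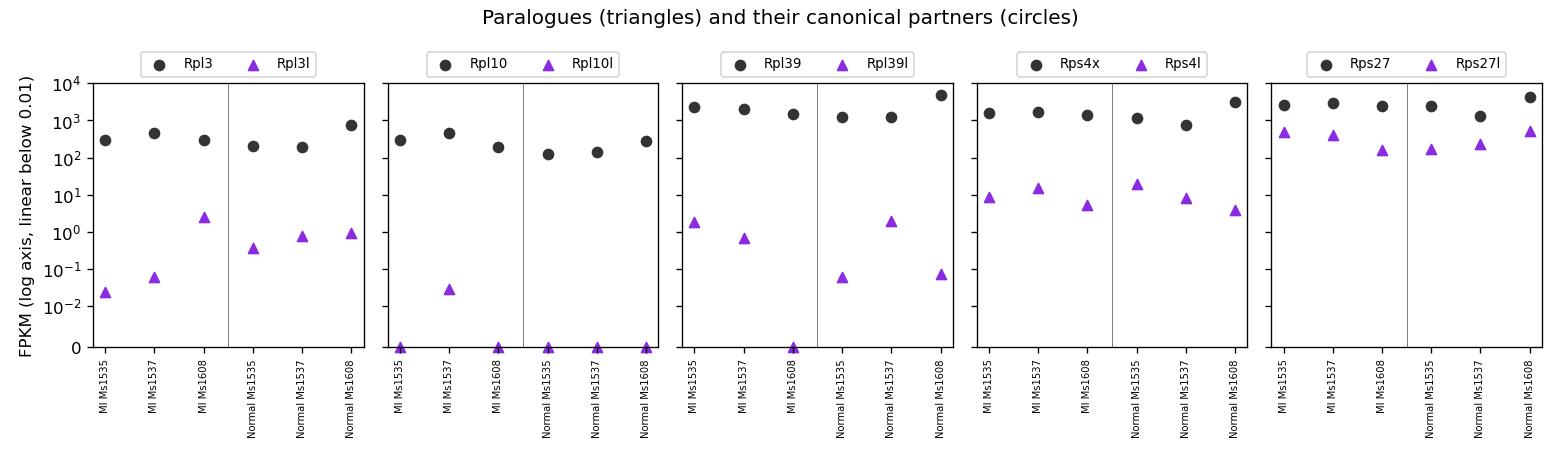
FPKM of 5 paralogues (triangles) and their canonical partners (circles) in each library, on a log axis that is linear below 0.01 FPKM. Rpl10l is on the axis at 0 in 5 libraries, Rpl3l peaks in MI Ms1608 at 2.45 FPKM, and of these 5 paralogues Rps27l is the nearest to its partner.

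Ribosomal proteins and paralogues outside the symbol rule were also highest in Normal Ms1608. Fau, a fusion of a ubiquitin-like domain with the small subunit protein eS30, was 414, 458 and 597 FPKM in MI and 273, 318 and 1549 in Normal. Gnb2l1 (Rack1), a scaffold on the small subunit, was 3371, 3820.0 and 2188 in MI and 1726, 1170.1 and 4651 in Normal. The same library led for Rpl22l1, Rpl36al, Rpl7l1, Rps27rt and Rps3a1. The log2 differences of these 7 genes ran from -0.08 (Fau) to 0.53 (Gnb2l1), and the adjusted p of each was at least 0.657 by limma.

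The balance of the 2 subunits was examined because a common scaling of a library cancels in it. The ratio of summed large to summed small subunit FPKM was 1.64, 1.55 and 1.53 in MI and 1.47, 1.66 and 1.32 in Normal. The groups overlapped, with means of 1.57 ± 0.0597 (SD, n = 3) and 1.49 ± 0.168 (SD, n = 3) and p = 0.5 by an exact two-sided permutation test. The ratio of the median large to the median small subunit gene was 0.745, 0.916 and 0.780 in MI and 1.09, 0.955 and 0.993 in Normal. Here the groups did not overlap and MI was the lower, with p = 0.1 by the same exact test, the smallest value it can give. The sum and the median thus differ in direction. A few genes weigh heavily in the sums: the 5 highest members held 17.1% (Normal Ms1608) to 27.5% (Normal Ms1537) of the members' summed FPKM. Without those 5 the log2 difference of the ratio of sums was 0.04 (p = 0.6 by the exact permutation test), against 0.08 with them. It thus stayed above 0, whereas that of the ratio of medians was -0.32.

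The share of a library held by ribosomal proteins depends on what is counted. Of the summed FPKM of all rows the members had 15.8%, 11.7% and 0.150% in MI and 21.6%, 19.3% and 2.97% in Normal (p = 0.5, exact two-sided permutation test). The low shares in both Ms1608 libraries came with large totals, in which the largest row was a short RNA. In Normal Ms1608 Mir1264 alone had 5040000 of the 5736420 FPKM. In MI Ms1608 Mir3099 had 43800000 of 67239000 FPKM, so a large part of that total lay in other rows. Counting tested genes alone, the members had 16.1%, 17.1% and 23.3% in MI and 21.9%, 19.6% and 25.0% in Normal (18.8% ± 3.92 and 22.2% ± 2.72, SD, n = 3, p = 0.3 by the exact permutation test). The 2 Ms1608 libraries had the highest shares, one in each group.

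Other parts of the translation machinery were read from lists of genes. Of 35 translation factors, all were tested and 0 passed the adjusted threshold, with 33 above 0, a median log2 difference of 0.73 and 2 at unadjusted p under 0.05. Of 35 ribosome biogenesis genes 32 were tested, with 0 called, 25 above 0 and a median of 0.75. Of 12 genes of ribosomal stress and mTOR signalling 9 were tested, with 0 called, 9 above 0 and a median of 0.78. The mitochondrial ribosome, a separate machine that makes the proteins encoded in mitochondria, had 73 of 74 genes tested, 0 called, 59 above 0 and a median of 0.82. With all 6 libraries these 4 medians lie by the all-gene median of 0.78 and that of the cytosolic ribosomal proteins was 0.18. Without Normal Ms1608 the medians were 0.87 for the translation factors, 0.97 for biogenesis, 1.31 for stress and mTOR and 0.51 for the mitochondrial ribosome, beside 0.63 for the cytosolic ribosomal proteins, which then lay above the mitochondrial ones. In that comparison 1 translation factor (Pabpc1, which binds the poly(A) tail) and 1 gene of the stress and mTOR list (Mdm2, the p53 ligase) were called, both higher in MI. The mitochondrial ribosome's median level on the log2(FPKM + 1) scale was lowest in Normal Ms1608 (2.18, against 3.31 to 4.30 in the other 5), the library where the cytosolic ribosomal proteins were highest (10.65, against 9.50 to 10.45). Its summed FPKM was not lowest there: the sum was 1871 in Normal Ms1608, 1520.4 and 1388 in Normal Ms1535 and Ms1537 and 1683 to 2361 in MI, so the contrast with the cytosolic set holds for the median only.

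**Figure D5:**
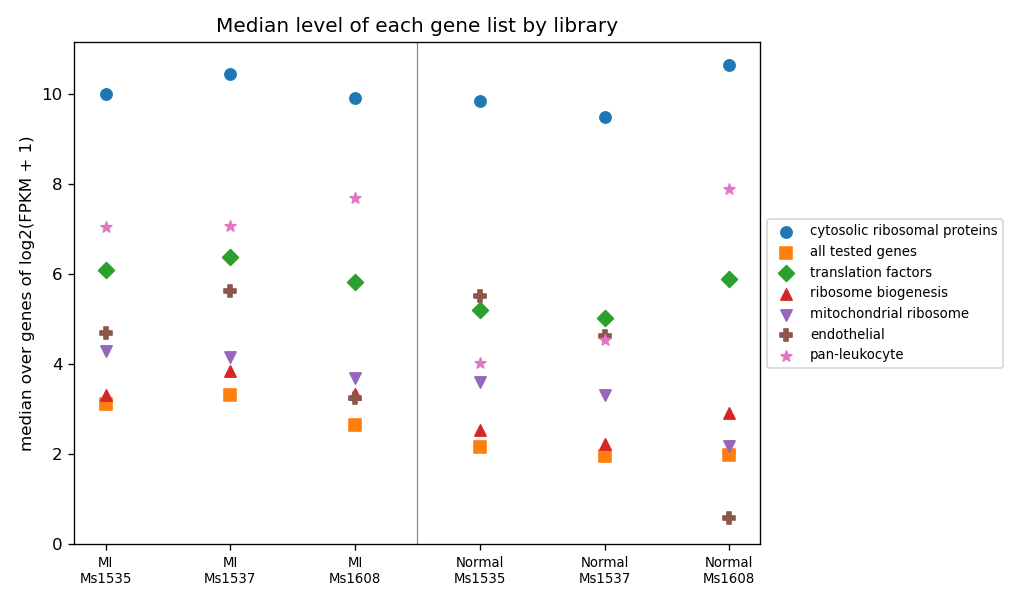
Median over genes of log2(FPKM + 1) for the cytosolic ribosomal proteins, all tested genes and 5 lists in each library. In Normal Ms1608 the ribosomal proteins (10.65) and pan-leukocyte markers (7.90) are at their highest, and the medians of the endothelial markers (0.60) and the mitochondrial ribosome (2.18) at their lowest, although the summed FPKM of the latter (1871) was not.

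The genes outside the set with the profile most like the members' median, by Pearson correlation of log2 values over the 6 libraries and among tested genes, were Anxa2 (0.998), H2-Bl (0.996), Exosc1 (0.996), Btf3 (0.995) and Klhl25 (0.995). Anxa2, a membrane-binding annexin, was 76.5, 139 and 73.0 FPKM in MI and 63.1, 39.5 and 194 in Normal. Btf3, the subunit of the nascent polypeptide-associated complex that sits at the ribosome exit, was 48.5, 71.1 and 40.2 in MI and 36.7, 24.7 and 85.7 in Normal. These correlations rest on 6 libraries and are a description, and Normal Ms1608 was the highest library for both genes.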

How the data were processed

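RNA of sorted mouse heart cells was sequenced in 6 libraries, 3 MI and 3 Normal. Per the submitters' processing notes, the tools were STAR 2.4.2a and Cufflinks 2.2.1 and the build GRCm38 (mm10). The annotation release is not given in the sources used here. The authors deposited 1 table of FPKM per gene with a column per library. Groups and numbers come from the sample titles. Members, gene lists and tests were chosen with earlier results of these data known, and support nothing on their own.

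FPKM are not counts, so log2(FPKM + 1) was tested with limma 3.58.1 (R 4.3.3, mean-variance trend, adjusted p under 0.05) on genes reaching 1 FPKM in 3 or more libraries, checked on simulated data. Intervals are 95%. Single values per library were tested by exact two-sided permutation (scipy 1.17.1). Members named are the 5 highest and 5 lowest by mean (above 0 in every library), the 5 with the largest difference from the members' median difference in each direction, the 5 lowest p, the 5 with the largest residual SD, and every paralogue with its partner; Rps24, Rps18, Rpl19, Rplp1, Rplp2, Pabpc1, Mdm2 and the genes with promoter motifs were added after values were seen. Pseudocounts of 0.1 and 5, other filters, 3 scalings, no trend, the block on the library number and leaving out each library were tried. Added after seeing the data were a scaling by the members' median and a share over tested genes alone.

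Counts were not used. In low FPKM values, 92.3% to 93.7% were within 0.1 of whole multiples of the value of 1 fragment, against 20% for an even spread, with the step fitted to the same values. The implied depth was 34.4 to 47.9 M fragments, which was not reconciled with the lower read number in the labels. The step was fitted on genes with a single annotated transcript. Numbers of fragments derived from it take the longest annotated transcript of each gene and cover counting error only. The rows of pseudogenes were not merged with their parents.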

Additional observations from a re-analysis of the deposited data

How the results depend on the processing

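The count of 0 ribosomal protein genes called held under every alternative run: both other pseudocounts, both other filters, 3 scalings, no trend, the block, the scaling by the members' median and leaving out each library. The members' median log2 difference (0.18) was -0.86 with median-ratio scaling and -0.57 with upper-quartile scaling, and -0.12 to 0.63 on leaving out 1 library. The all-gene median (0.78) was 1.13 with a pseudocount of 0.1, 0.40 with a pseudocount of 5, 0.042 with no filter (members 0.18), 0.018 with median-ratio, 0.20 with upper-quartile and -0.046 with quantile scaling. Median-ratio scaling moved every tested member by -1.04 to -0.92 and upper-quartile scaling by -0.75 to -0.70, near-common offsets that say nothing of single genes. With these offsets the sign turned under median-ratio scaling for Rpl10 (-0.21), Rpl8 (-0.45), Rplp0 (-0.37), Rps2 (-0.28), Rps28 (-0.48) and Rpsa (-0.33), and under upper-quartile scaling for Rpl8 (-0.16), Rplp0 (-0.079), Rps28 (-0.19) and Rpsa (-0.041). Genes called in the whole table ran from 1 to 459 on leaving out 1 library, the highest without Normal Ms1608, and were 2 without MI Ms1537.

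On leaving out 1 library Rpl35a ran from -0.48 to 0.061, Rpl37 from -0.49 to 0.054 and Rps27a from -0.75 to 0.27, each above 0 without Normal Ms1608. The log2 difference of the large to small subunit ratio was 0.08 with sums and -0.32 with medians over members (exact p = 0.1, the smallest possible).

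With the library number as a replicate block, 0 members and 1 gene were called and the lowest adjusted p of a member was 0.608 by limma. Deviations of same-numbered libraries from their group means correlated at -0.052, 0.098 and 0.087, and those of different-numbered libraries at -0.115 to 0.104. With 3 libraries per group the deviations are tied to each other, so these values cannot decide whether the numbers are pairs. The main fit left the numbers out because the labels do not say that a number is a mouse. No paralogue below 3 fragments can be told from absent at this depth.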
